A study of Mus musculus with 2 samples.

Results

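The 8 genes described here, Ttr, Folr1, Kcnj13, Clic6, Otx2, Kl, Foxj1 and Kcne2, mark the choroid plexus, the ependyma or both. They were picked by symbol out of 37310 annotated mouse genes. The rule names no measured value, but the choice was made with earlier results of these data known. RNA from whole mouse brain of E17.5 embryos was sequenced in 2 libraries, 1 for each direction of a cross between strains. In the BxC library the F1 embryo had a C57BL/6J mother and a CastEi/J father. In the CxB library the mother was CastEi/J and the father C57BL/6J. Both embryos therefore carried a C57BL/6J and a CastEi/J copy of each autosome, and the labels name no altered gene and no agent. The crosses were made for the study of parental origin of transcripts. Here the question was how much of this choroid plexus and ependymal RNA each library held, and whether the genes moved together between the libraries.

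The choroid plexus is a folded epithelium over a core of vessels and stroma that hangs into the brain ventricles and secretes cerebrospinal fluid. Its cells carry transporters, ion channels and carrier proteins that set the composition of that fluid. Ependymal cells line the ventricles and bear beating cilia, whose genes are switched on by Foxj1. In whole tissue, fewer cells of a type and less RNA per cell cannot be told apart.

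Counts on the aligned lines, taken as reads, summed to 128944754 for BxC and 109719746 for CxB, with reads of 36 bases. Both totals are above the average number of reads per library that the study reports, and the cause was not tested. Since each cross had 1 library, no test was possible. Each ratio compares these libraries and not the crosses, and the 95% intervals given cover counting error only. Reads lay on the strand of the gene for 43.0% (BxC) and 42.5% (CxB) of the reads over 14586 protein-coding genes that overlap no other gene, so reads of both strands were counted. The study's methods describe a library preparation that keeps strand, by dUTP in the second strand, which these shares do not show, and the cause was not tested. The choice matters here, since the median log2 ratio of the 8 genes, 0.084 on both strands, was -0.049 on the gene's strand. Chromosome Y held 1852 reads in BxC and 18212 in CxB. The study's methods list male and female BxC brains and a male CxB brain, so the embryos may differ in sex as well as cross. In the ratios given here sex and cross cannot be told apart. Levels are given as RPKM, reads per kb of exon per 1000000 reads of the library. The brain label was matched by neuronal and radial glial transcripts, with Tubb3, a neuronal tubulin, at 974 (BxC) and 840 (CxB) RPKM and Fabp7, a radial glial fatty acid binding protein, at 152 (BxC) and 160 (CxB) RPKM.

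Reads that crossed from exon to exon showed which transcripts of these genes were present. The junctions below are shown because they bear on the leading exon or the isoform of a gene. Each sequence has the last 15 bases of the upstream exon in lower case and the leading 15 bases of the downstream exon in capitals, 5′ to 3′ on the gene's strand, from the mm9 genome. The Folr1 line is the junction of that gene with the most reads, shared by 10 annotated transcripts. The Foxj1 lines are the introns of that gene crossed by more and by fewer reads, and the Clic6 line is from the transcript that was present.
Folr1, exon 6 to exon 8, intron chr7:109012609-109016911, minus strand: gagttggcgattagaGGTCTGACATGGCTC
Foxj1, exon 1 to exon 2, intron chr11:116196023-116196531, minus strand: tgcgctctgagccagGCCTCACATTCGTGT
Foxj1, exon 2 to exon 3, intron chr11:116193792-116195355, minus strand: gaccccacctggcagAATTCCATCCGCCAC
Clic6, exon 2 to exon 3, intron chr16:92499803-92528304, plus strand: accctcttcgtcaagGCTGGTTATGACGGC
The Otx2 lines show a pair of starts that join the same exon, and a pair of acceptors that differ by 24 bases.
Otx2, exon 1 to exon 4, intron chr14:49282335-49286874, minus strand: caatgcggctgtaagTTCCGTCACTCCAAA
Otx2, exon 3 to exon 4, intron chr14:49282335-49284653, minus strand: gctatttgctcctagTTCCGTCACTCCAAA
Otx2, exon 4 to the shorter exon 6, intron chr14:49281126-49282118, minus strand: ccgtgggctaccccgCCACCCCCCGGAAAC
Otx2, exon 4 to the longer exon 6, intron chr14:49281150-49282118, minus strand: ccgtgggctaccccgGGCCCTGGGCTTCTT
The Kcne2 lines show alternative leading exons that join the exon with the coding sequence.
Kcne2, exon 1 to exon 3, intron chr16:92292769-92296819, plus strand: tcacataccacacagCAAGGGGGAAGCATG
Kcne2, exon 2 to exon 3, intron chr16:92295938-92296819, plus strand: gaggcagattgaacgCAAGGGGGAAGCATG
All 12 junctions looked up in the genome, which include these 10, bound an intron that begins with GT and ends with AG.

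The 8 genes lay between percentiles 36.3 and 99.8 of protein-coding genes in BxC and 35.9 and 99.8 in CxB. Over the whole exon model their order was the same in both libraries. Ttr was the highest, at 253 RPKM (95% interval 251 to 256) in BxC and 281 RPKM (278 to 283) in CxB. Among 22380 protein-coding genes it ranked 53 in BxC and 43 in CxB. Foxj1 followed at 11.5 and 13.96 RPKM and Otx2 at 5.65 and 5.37 RPKM in BxC and CxB, and then came Clic6 at 2.55 and 3.28 RPKM and Kcne2 at 1.83 and 2.01 RPKM. Folr1, at 1.33 and 1.35 RPKM, and Kcnj13, at 1.22 and 1.249 RPKM, were neighbours whose counting intervals overlapped in both libraries. Kl was the lowest, at 0.314 RPKM in BxC and 0.294 RPKM in CxB. The intervals of all other neighbours in this order were apart in both libraries. Ttr held 81.8% (BxC) and 81.5% (CxB) of the reads of the 8 genes. The order depended on what was counted. Over the coding part alone Otx2 lay above Foxj1 in BxC, at 10.7 against 8.04 RPKM. In CxB these genes were close, at 9.72 against 9.97 RPKM from 950 and 1381 reads, and their order was not set against counting error. Over the same part Folr1, at 3.31 and 3.16 RPKM, lay above Kcne2, at 2.29 and 1.78 RPKM. With each line of the files counted once, Kcnj13 lay above Folr1 in both libraries, at 2.82 against 2.05 in BxC and 2.55 against 2.38 in CxB, in lines per kb scaled in the same way.

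**Figure D1:**
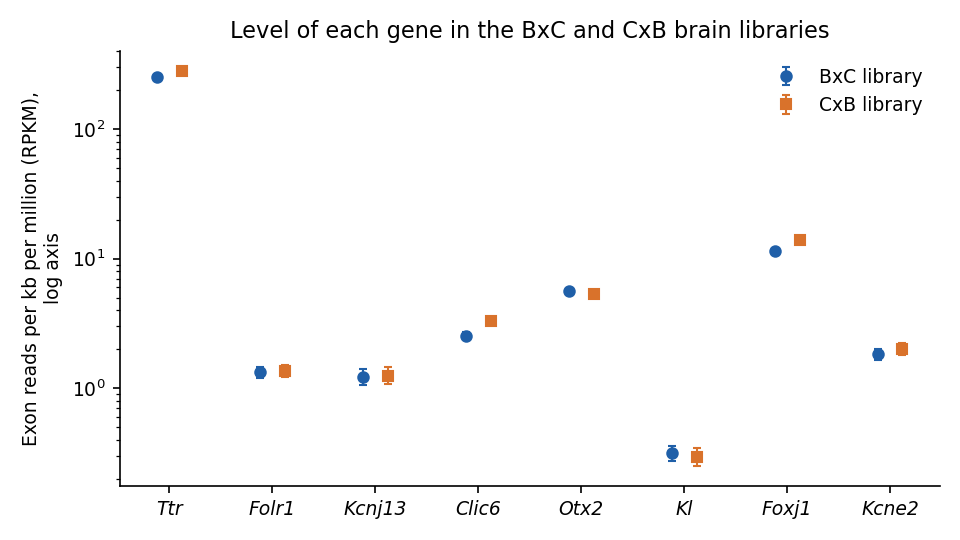
Level of each gene (log axis, RPKM) in the BxC library (circles) and the CxB library (squares), with 95% Poisson intervals for counting error, which are smaller than the symbol for most genes. Ttr lies at 253 and 281 RPKM, Kl at 0.314 and 0.294 RPKM, and over the whole exon model the order of the 8 genes is the same in both libraries. Over the coding part, not shown, Otx2 was above Foxj1 in BxC and close to it in CxB.

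Between the libraries the genes differed little. The CxB over BxC ratio of reads, each per library total, ran from 0.937 for Kl to 1.29 for Clic6, with a median of 1.06 against 0.999 over all 15427 genes that had at least 100 reads in each library. A ratio above 1 was found for 6 of the 8 genes, against 49.6% of all these genes. None of the 8 passed 1.5-fold in either direction, which 1.1% of all genes did (0.473% higher and 0.622% lower in CxB). The counting interval lay wholly above 1 for 3 of the 8 genes, Ttr, Clic6 and Foxj1, and wholly below 1 for 0. Over all genes the corresponding shares were 25.4% and 25.8%. Counting intervals thus left out 1 for 51.3% of all genes, so such an interval alone did not set a gene apart. Of the 8 ratios, 4 lay within the quartiles of all genes (0.936 to 1.07).

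Counted as distinct positions, where reads with the same start, strand and blocks count once, the ratios lay closer together, from 0.889 for Kcnj13 to 1.14 for Folr1. The median was 1.12, against 1.01 over all genes. The ratio was above 1 for 5 of the 8 genes by this measure, against 55.4% of all genes. The interval was above 1 for the same 3 genes, Ttr, Clic6 and Foxj1, against 8.07% of all genes, and below 1 for 0 against 5.63%. Positions fill up in deep genes, and their position ratio then nears a value set by the library totals. Ttr held 50.5% (BxC) and 48.4% (CxB) of its possible positions, Clic6 7.87% and 7.61%. The position ratio of Ttr therefore adds little to its read ratio. Tubb3, also deep, had 0.863 by reads and 1.15 by positions. Kcnj13 moved from 1.03 by reads to 0.889 by positions, and both of its intervals held 1.

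**Figure D2:**
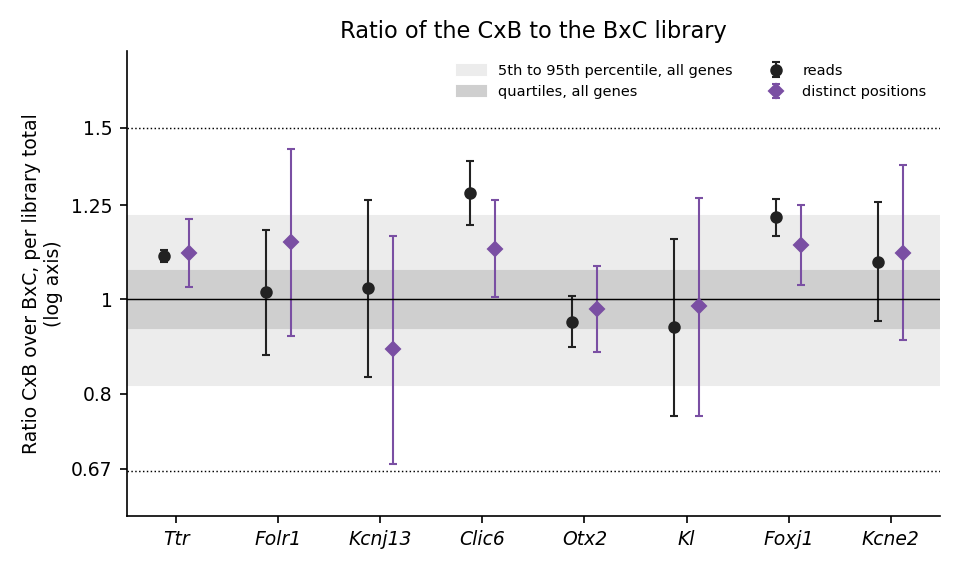
CxB over BxC ratio of each gene by reads (circles) and by distinct positions (diamonds), each per library total, with 95% counting intervals on a log axis. Bands give the quartiles and the 5th to 95th percentile of all 15427 genes by reads, and dotted lines mark 1.5-fold. Clic6 (1.29) lies above the light band by reads and at 1.13 by positions.

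Ttr encodes transthyretin, the carrier of thyroxine and of retinol-binding protein in plasma and cerebrospinal fluid, and is the most abundant transcript of the choroid plexus epithelium. Its 4 exons on chromosome 18 held 39825 reads in BxC and 37523 in CxB, a ratio of 1.11 (95% interval 1.09 to 1.12). The intervals of the levels did not overlap. The ratio was 1.04 (1.0006 to 1.08) with each line of the files counted once and 1.01 (0.969 to 1.06) over annotated junctions, where the interval held 1. Ratios of 1.10 on the gene's strand and 1.11 on the opposite strand were alike. By exon they were not. Exon 1 went from 4472 reads in BxC to 5494 in CxB, a ratio of 1.44 (1.39 to 1.502), while exon 3 went from 9375 to 7598 reads, a ratio of 0.952 (0.924 to 0.982). Exon 2, with 7310 and 6368 reads, gave 1.02, and exon 4, with 22626 and 21481 reads, gave 1.12. By reads, exons 1 and 3 of this gene therefore differed by more than any of the 8 whole genes did between the libraries. Distinct positions, 210 (BxC) and 202 (CxB) in exon 1 and 330 and 325 in exon 3, cannot decide on this contrast. Exon 3 has only 136 bases, so few further positions were left for reads to fill.

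The reads of Ttr were piled on few positions. The deepest position was the same in both libraries, with 2260 reads in BxC and 2036 in CxB. Positions found in both libraries held 99.1% of the BxC and 99.4% of the CxB reads. Cut into 20 equal stretches 5′ to 3′, the transcript model was deepest in stretch 10, at a mean depth of 5636 (BxC) and 4902 (CxB) reads per base. From stretch 14 on, within the 3′ noncoding end of the annotated exon 4, the mean depth was at most 58.0 (BxC) and 44.8 (CxB). Over the coding part alone, 35101 and 32537 reads gave 617 RPKM in BxC and 672 RPKM in CxB, well above the level over the whole model. The 3 annotated junctions of Ttr carried 1695, 1007 and 1255 reads in BxC and 1660, 773 and 982 in CxB, in the order of the gene. Junctions that are not annotated and skip an exon had 1 read in BxC and 3 in CxB. Introns held 1405 and 1543 reads, so that exons had 183 (BxC) and 157 (CxB) times the reads per kb of the introns, against a median of 24.1 over 13051 protein-coding genes in each library.

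Folr1 encodes the folate receptor that moves folate across the choroid plexus into cerebrospinal fluid. It had 394 reads in BxC and 341 in CxB, a ratio of 1.02 (0.877 to 1.18). The libraries could not be told apart at this depth. The annotation gives it 11 exons, many of them alternative leading ones, and the reads used few of them. Exons 1, 2, 3 and 5 had 0 reads in both libraries, which allows up to 3 reads in a library, and exon 4 had 18 and 21. The junction from exon 6 to exon 8, the one printed above, carried 73 reads in BxC and 58 in CxB, all on the gene's strand. By reads the next junction of the gene, from exon 8 to exon 9, had 13 and 12. Its reads lay at 8 positions in each library, against 9 in each for the exon 6 to exon 8 junction.

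Reads across that Folr1 junction began close together, as reads of 36 bases that cross the same junction must to some extent. Of the 73 reads in BxC, 66 began within 6 adjacent bases, and of the 58 in CxB, 53 did. The bases are shown because most of these reads began there in each library, at all 6 in BxC and at 5 of the 6 in CxB. They lie at chr7:109016925-109016930 (mm9, minus strand) and are in capitals within the window chr7:109016912-109016941, in the noncoding leading part of the gene.
Folr1, window at the exon 6 end: gacttcctgggCCTGGAgttggcgattaga
The share of the junction reads that began there was 90.4% in BxC and 91.4% in CxB. Introns of Folr1 held 38 reads in BxC and 12 in CxB, a ratio of 0.371 (0.177 to 0.725), while its exons gave 1.02.

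Among the other genes of folate uptake and use, 9 of 10 had enough reads, 0 passed 1.5-fold, and the median ratio was 1.03 against 0.999 over all genes. Shmt2, a mitochondrial enzyme of one-carbon metabolism, was the most abundant at 10.97 and 10.2 RPKM, followed by Mthfd1 at 4.36 and 5.11 RPKM and Slc19a1, the reduced folate carrier, at 4.20 and 4.35 RPKM. Mthfd1, another enzyme of one-carbon metabolism, had the highest ratio (1.17). Slc46a1, the proton-coupled folate transporter that works with Folr1 in the choroid plexus, went from 1005 to 961 reads, a ratio of 1.12. Folr2, the paralog of Folr1, had 52 reads in BxC and 14 in CxB, too few for the list.

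The genes that handle thyroid hormone and retinol, the cargo of transthyretin, were 11. All had enough reads, 0 passed 1.5-fold, and the median ratio was 1.01, with 6 of the 11 above 1 against 49.6% of all genes tested. Slco1c1, Thrb, Dio2 and Aldh1a1 had ratios of 1.32, 1.35, 1.21 and 1.21. Thra, a thyroid hormone receptor, was the highest at 156 and 147 RPKM, and Slco1c1, a thyroid hormone transporter, stood at 6.12 and 8.10 RPKM. Thrb had the highest ratio, 1.35 (427 to 491 reads), and Crabp2, a retinoic acid binding protein, the lowest, 0.683 (1150 to 668 reads). Rbp4, the partner of transthyretin in plasma, had 392 reads in BxC and 344 in CxB, a ratio of 1.03.

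Kcnj13 encodes the inward rectifier potassium channel Kir7.1 of the apical choroid plexus membrane. It had 199 reads in BxC and 174 in CxB, a ratio of 1.03 (0.834 to 1.27), so the libraries did not differ beyond counting error. Not all of these reads can be given to Kcnj13. The gene lies on chromosome 1 on the strand opposite to Gigyf2, and 107 reads in BxC and 111 in CxB lay on bases that are also exons of Gigyf2. Without strand these cannot be told apart. Junctions annotated for Kcnj13 carried 4 reads in BxC and 3 in CxB. Its level is therefore uncertain.

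Kcne2 encodes a small subunit that pairs with Kcnq1 and other potassium channels and is expressed at the apical choroid plexus membrane. It had 418 reads in BxC and 389 in CxB, a ratio of 1.09 (0.950 to 1.26). The intervals of the coding and 3′ noncoding parts did not overlap. The coding part had 109 and 72 reads, a ratio of 0.776 (0.568 to 1.06), while the 3′ noncoding part had 276 and 302 reads, a ratio of 1.29 (1.09 to 1.52). The opposite strand gave 1.23 (1.02 to 1.48) and the gene's strand 0.940 (0.757 to 1.17). The deepest position, the same in both libraries, had 27 reads in BxC and 33 in CxB, 6.46% and 8.48% of the gene's reads. Both alternative leading exons were joined to the coding exon, exon 1 by 1 and 2 reads and exon 2 by 1 read in each library, too few to say which was used more.

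Of the genes fixed as channel partners of Kcne2 and Kcnj13, 13 of 16 had enough reads, 0 passed 1.5-fold, and the median ratio was 1.01. The sodium pump subunits Atp1b1 and Atp1b2 were the highest, at 63.0 and 54.0 RPKM in BxC and 66.8 and 50.4 RPKM in CxB. Kcnq1, the pore subunit that Kcne2 is known to pair with, had 134 reads in BxC and 123 in CxB, a ratio of 1.08 (0.838 to 1.39). Kcne1, a relative of Kcne2 on the same chromosome, had 4 reads in each library.

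Clic6 belongs to the chloride intracellular channel family and is abundant in choroid plexus epithelium. It had 1287 reads in BxC and 1409 in CxB, a ratio of 1.29 (1.19 to 1.39), the highest of the 8. This ratio stood at percentile 97.4 of all genes. It was 1.30 on the gene's strand and 1.28 on the opposite strand, and above 1 in all 6 exons that had at least 20 reads in each library. Exon 6 differed most, from 43 reads to 81, a ratio of 2.21 (1.51 to 3.28), at 31 (BxC) and 39 (CxB) positions. By distinct positions, 616 in BxC and 596 in CxB, the ratio was 1.13 (1.01 to 1.26), and over its annotated junctions, with few reads, 1.30 (0.863 to 1.95).

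Exon 1 of the annotated Clic6 had 0 reads in both libraries, which allows up to 3 in each, and exon 2 held 823 and 854, a ratio of 1.22 (1.11 to 1.34). By reads, the interval of exon 6, given above, did not overlap that of exon 2. The junction from exon 2 to exon 3, over an intron of 28502 bases, had 33 reads in BxC and 28 in CxB, and belongs to the annotated transcript Clic6-001 alone. The junctions from exon 5 to 6 and from exon 6 to 7 had 1 and 4 reads in BxC and 5 and 10 in CxB. All 5 junctions used carried 49 and 54 reads in total. Of the 4 other Clic genes, all had enough reads, 0 passed 1.5-fold, and the median ratio was 1.08. Clic1, Clic4 and Clic3 were the highest, at 8.14, 5.27 and 1.01 RPKM in BxC and 6.95, 4.83 and 1.40 RPKM in CxB, and the ratios ran from 0.854 for Clic1 to 1.39 for Clic3.

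Kcne2 and Clic6 lie on the plus strand of chromosome 16 with 187606 bases between them (mm9). Of the genes between them only Fam165b and Rcan1 had enough reads. Fam165b went from 1570 to 1308 reads, a ratio of 0.979 (0.909 to 1.05), and Rcan1 from 6419 to 5304, a ratio of 0.971 (0.936 to 1.01). Neither had an interval above 1, as Clic6 had.

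Otx2 encodes a homeodomain factor that specifies the forebrain and midbrain early and is later needed for the choroid plexus, the pineal gland and the retina. It had 2476 reads in BxC and 2000 in CxB, a ratio of 0.949 (0.895 to 1.01). The ratio of the coding part alone was 0.905 (0.831 to 0.986), from 1233 and 950 reads. Exon 7, which holds most of the gene's reads, went from 1557 to 1189, a ratio of 0.897 (0.832 to 0.968), and exon 1 from 84 to 100, a ratio of 1.40 (1.04 to 1.89). Intron reads fell less far below the exons than for any of the other 7 genes. Introns held 878 and 634 reads, and exons had only 5.45 (BxC) and 6.10 (CxB) times the reads per kb of the introns.

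More than 1 start of Otx2 was in use. The junction from exon 1 to exon 4 had 16 (BxC) and 28 (CxB) reads. That from exon 3 to exon 4 had 12 in each library. A further annotated start, at exon 2, was joined by 0 reads in BxC and 1 in CxB. Of the acceptors of exon 6, the one giving the shorter exon had 16 and 10 reads and the one giving the longer exon 4 in each library. The 24 bases between them are coding and a multiple of 3, at chr14:49281126-49281149 (mm9, minus strand).
Otx2, bases added in the longer exon 6: GGCCCTGGGCTTCTTGTCCTGCAG
Both libraries thus held reads of both forms, and the shorter form had more reads in each.

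Kl encodes Klotho, the co-receptor of Fgf23, made in the kidney and in the choroid plexus. It had 207 reads in BxC and 165 in CxB, a ratio of 0.937 (0.759 to 1.15), not distinguishable from 1 at this depth. Reads covered 55.0% of its exon bases in BxC and 50.3% in CxB. Its junctions carried 2 reads in BxC and 5 in CxB. Introns held 120 and 79 reads, so the exons had 12.2 and 14.8 times the reads per kb of the introns. Of the 9 genes listed as its relatives and FGF partners, 5 had enough reads, 0 passed 1.5-fold, and the median ratio was 1.00. The receptors Fgfr1, Fgfr3 and Fgfr2 were the highest, at 9.29, 7.68 and 5.69 RPKM in BxC and 9.41, 8.74 and 5.63 RPKM in CxB. Fgfr3 had the highest ratio (1.14) and Fgf15 the lowest (0.836). The ligand Fgf23 itself had 49 reads in BxC and 31 in CxB.

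Foxj1 encodes the forkhead factor that drives motile ciliogenesis in ependyma and choroid plexus. It had 3888 reads in BxC and 4017 in CxB, a ratio of 1.21 (1.16 to 1.27), at percentile 94.9 of all genes. All 3 exons went the same way, with ratios of 1.26, 1.18 and 1.14 for exons 1, 2 and 3, and the strands gave 1.20 and 1.22. By distinct positions, 901 and 880, the ratio was 1.14 (1.04 to 1.2502), and over annotated junctions 1.05 (0.920 to 1.21). Reads were concentrated at the 5′ end in both libraries. Exon 1 had 8368 (BxC) and 8962 (CxB) reads per kb, and exon 3, which is mostly 3′ noncoding, had 614 and 594. The junction from exon 1 to exon 2 had 403 and 384 reads, at only 9 and 8 positions and with 2 reads on the gene's strand in each library. That from exon 2 to exon 3 had 52 and 24 reads, at 12 and 9 positions, so the contrast was in reads and not in positions. The deepest position was the same in both libraries, with 212 reads in BxC and 208 in CxB.

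**Figure D3:**
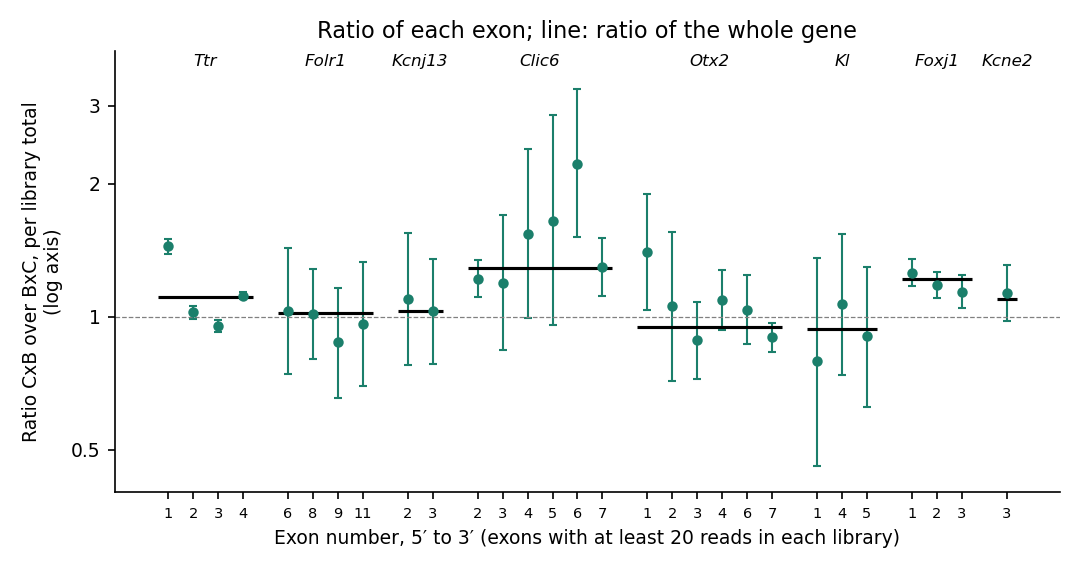
CxB over BxC ratio of reads of each exon with at least 20 reads in each library (points, 95% counting intervals, log axis), in 5′ to 3′ order, with the ratio of the whole gene as a line. Exon 1 of Ttr (1.44) and exon 6 of Clic6 (2.21) lie above their gene's ratio, and the exons of Foxj1 (1.14 to 1.26) lie together.

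Intron and exon ratios lay on the same side of 1 for 4 of the 8 genes, Ttr, Clic6, Otx2 and Kl. The intron ratio was below 1 for 6 of the 8 genes, against 46.4% of the 13051 protein-coding genes with at least 10 intron reads in each library. It was above 1 for Ttr, 1.29 (1.20 to 1.39), and Clic6, 1.17 (0.988 to 1.39). The interval was wholly below 1 for 2 genes, Folr1 and Otx2, against 17.1% of all genes, and wholly above 1 for 1, Ttr, against 22.6%. Foxj1 had a ratio of 0.845 (0.665 to 1.07) in its introns, from 171 and 123 reads, and 1.21 in its exons. Introns of Kcnj13 lie within Gigyf2, so its intron reads, 132 and 89, can also belong to that gene.

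**Figure D4:**
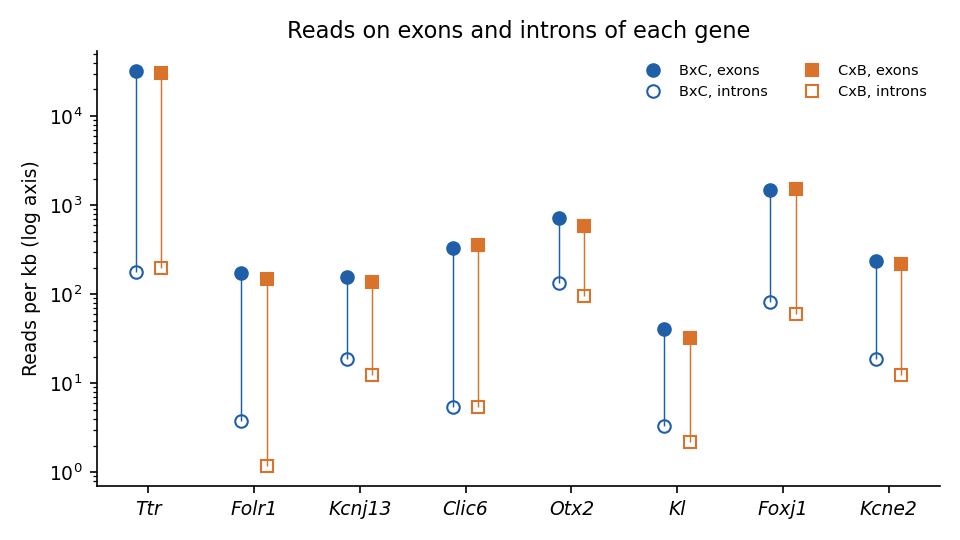
Reads per kb (log axis) on the exons (filled symbols) and introns (open symbols) of each gene in BxC (circles) and CxB (squares), joined by a line. The line is longest for Ttr in BxC (183-fold) and shortest for Otx2 (5.45-fold in BxC and 6.10-fold in CxB).

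Other genes of the same epithelia were spread around 1. Of 26 other choroid plexus genes, 24 had enough reads, 0 passed 1.5-fold, 13 had a ratio above 1, and the median was 1.02. Igf2, a growth factor also made in the meninges and vessels, was the highest at 125 and 107 RPKM, then Igfbp2, which binds it, at 58.0 and 56.4 RPKM and Slc31a1, a copper transporter, at 14.9 and 13.8 RPKM. Cldn2, a tight junction protein of the choroid plexus, had the highest ratio, 1.49 (1.27 to 1.76), from 266 to 338 reads. Trpv4, a calcium channel, had the lowest, 0.750 (0.607 to 0.925), from 235 to 150 reads. The reads of the 24 genes summed gave a log2 ratio of -0.14, and without Igf2, which went from 88258 to 64648 reads, -0.016.

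Of 36 motile cilia genes listed, 35 were found in the annotation and 31 had enough reads, with a median ratio of 0.952, and 12 of the 31 were above 1, against 49.6% of all genes tested. The list was not tested against Foxj1. Rsph1, a radial spoke protein, was the highest at 31.6 and 28.0 RPKM, then Rsph9 at 5.05 and 5.11 RPKM and Rfx3, a factor that acts with Foxj1, at 3.94 and 3.82 RPKM. Of the 31, only Myb, a factor early in multiciliated cells that is also active in dividing blood precursors, passed 1.5-fold, from 357 to 481 reads, a ratio of 1.58 (1.38 to 1.82). The axonemal dynein gene Dnahc5 had the lowest, 0.726 (0.626 to 0.842), from 474 to 293 reads. Among the genes with fewer reads, Armc4 had 15 and 36, a ratio of 2.82 (1.51 to 5.54).

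Markers of other tissues that could come with the brain were read beside these values, and their part in the ratios of the 8 genes was not tested. Otx2, Kcnj13 and Ttr are also expressed in the eye. Of 18 eye genes, 8 had enough reads, 5 of these had a ratio above 1, and the median was 1.09. Rlbp1, Cryab and Rdh5 were the highest, at 11.2, 5.33 and 4.39 RPKM in BxC and 11.4, 5.20 and 3.64 RPKM in CxB. The lens crystallin Cryaa went from 190 reads to 788, a ratio of 4.87 (4.15 to 5.74), and Pmel had the lowest ratio, 0.739. Crygd, another lens crystallin, had 30 and 139 reads, Crx 44 and 70, and Rax 24 and 42. Nrl, with 80 and 63 reads, and Dct, with 47 and 37, went the other way, each with a ratio of 0.925. The pigment epithelium marker Rpe65 had 0 reads in both libraries, and Tyr had 0 and 4. The summed level of the eye list was 25.1 RPKM in BxC and 30.7 RPKM in CxB. The rise lay in the lens crystallins Cryaa, at 1.24 and 6.06 RPKM, and Crygd, at 0.226 and 1.23 RPKM, and not in the list as a whole.

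By reads, the blood and meninges lists had medians below 1, while the 8 genes had a median above 1 on the 2 strands together and a log2 median of -0.049 on the gene's strand alone. By distinct positions the 6 blood genes with enough reads had ratios from 0.803 (Alas2) to 1.18 (Hba-a2). For the deep globin genes positions could not follow the reads. Hba-a2 had 70 positions in BxC and 71 in CxB for 2730 and 1824 reads, and Hba-a1 72 and 71 for 8751 and 6114. Of 10 blood genes, 9 were found and 6 had enough reads, all with ratios below 1, and the median was 0.792. The globin genes Hbb-b1, Hba-a1 and Hba-a2 were the highest, at 187, 83.6 and 31.6 RPKM in BxC and 153, 68.6 and 24.8 RPKM in CxB. The globin copies are near-identical, so reads may be split among them. Ratios ran from 0.704 for Alas2 to 0.821 for Hba-a1, and the embryonic globin Hbb-bh1 had 0 reads in both libraries. All 12 meningeal and mesenchymal genes had enough reads, 2 had a ratio above 1, and the median was 0.900. Ptgds, Col1a1 and Col3a1 were the highest, at 86.2, 27.7 and 11.1 RPKM in BxC and 72.7, 25.4 and 8.66 RPKM in CxB. Slc6a13 had the lowest ratio of the list, 0.716, and Twist1 the highest, 1.13.

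Of 8 endothelial genes, 7 had enough reads, and the median ratio was 0.936. Cldn5, Cdh5 and Kdr led at 17.1, 6.71 and 5.59 RPKM in BxC and 18.2, 6.17 and 5.23 RPKM in CxB, with ratios from 0.911 for Pecam1 to 1.07 for Cldn5. Of 10 liver markers only Trf, which brain also expresses, had enough reads, with a ratio of 0.871. Apoa2 had 81 and 74 reads, or 1.17 and 1.26 RPKM, near the levels of Kcnj13 and Folr1, and Apoa1 had 42 and 75 reads, a ratio of 2.10 (1.42 to 3.14). Alb had 0 reads in BxC and 45 in CxB, Ahsg 1 and 56, Fgb 2 and 12, and Afp 3 in each. In the pituitary list Gh and Cga had 0 reads in both libraries, and 3 of 9 genes had enough reads, among them Pomc with a ratio of 0.983 and Pou1f1 with 1.36. Of those with fewer reads, Pitx1 had 56 and 86, a ratio of 1.805 (1.27 to 2.57), and Lhx3 68 and 44, a ratio of 0.760 (0.508 to 1.13). Tshb had 5 and 2 reads and Prl 6 and 0. Of the pineal genes only Tph1 had enough reads, 120 and 114, a ratio of 1.12. Lhx4 had 71 and 112, a ratio of 1.85 (1.36 to 2.53), and Aanat 42 and 23, a ratio of 0.644 (0.369 to 1.09). The Lhx4 reads lay at 46 (BxC) and 47 (CxB) distinct positions, so its contrast was mostly in reads. Of 8 airway and olfactory genes 3 had enough reads, Gnal at 1.10, Adcy3 at 1.08 and Sec14l3 at 1.18. Among the others the secretory marker Scgb1a1 had 3 and 0 reads, Muc5b 51 and 17, a ratio of 0.392 (0.212 to 0.690), and Cnga2 7 and 14. Bpifa1 had 4 and 31 reads, a ratio of 9.11 (3.22 to 35.5), and the olfactory marker Omp 40 and 63, a ratio of 1.85 (1.23 to 2.82). The Omp reads lay at 35 distinct positions in each library.

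The brain's own markers stayed near 1. The median ratio was 1.01 over 9 neuronal genes and 1.03 over 7 radial glial genes, and 0 genes of either list passed 1.5-fold. After Tubb3, the highest neuronal genes were Gap43 at 575 and 548 RPKM and Stmn2 at 343 and 355 RPKM, and ratios ran from 0.863 for Tubb3 to 1.09 for Dcx. After Fabp7, the highest radial glial genes were Sox2 at 70.5 and 71.8 RPKM and Vim at 53.9 and 53.3 RPKM, and ratios ran from 0.945 for Pax6 to 1.14 for Hes5.

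**Figure D5:**
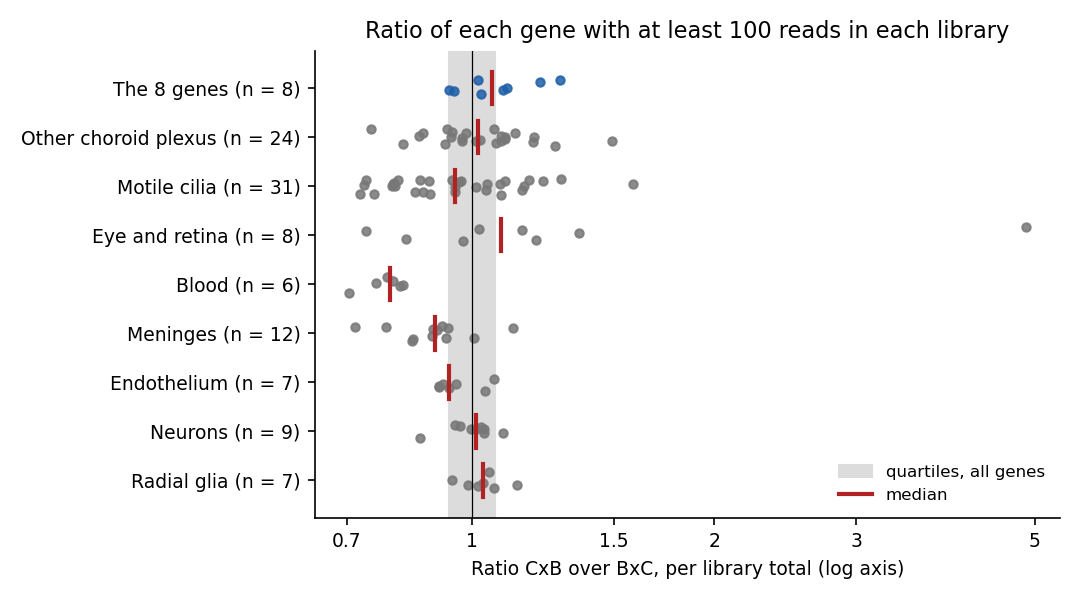
CxB over BxC ratio (log axis) of each gene with at least 100 reads in each library, by list, with the list median as a bar and the quartiles of all genes as a band. The 8 genes have a median of 1.06, other choroid plexus genes 1.02, motile cilia genes 0.952 and blood genes 0.792, and the point at 4.87 is Cryaa.

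Many genes had a ratio close to the median of the 8. Of 11338 protein-coding genes with at least 500 reads in each library, 2646 (23.3%) lay within 0.05 of that median on the log2 scale. The nearest were Atp1b1, Emb, Ikzf2, Vps4a, Amdhd2, Chn1, Birc2, Tnks, Reps2 and Dmtf1, of which Atp1b1, the sodium pump subunit named above, went from 19671 to 17745 reads. The 10 genes furthest in the same direction were Gm10800, Pik3cd, Adamtsl4, Ero1lb, Noc4l, Prkag2, A230006K03Rik, Nap1l5, Nus1 and 1500009L16Rik, with ratios from 1.43 to 3.15. None of these 10 was on the choroid plexus or motile cilia lists, but the minimum of 500 reads bears on this. It left out Myb (ratio 1.58) of the cilia list and Cldn2 (1.49) of the choroid plexus list, both above the lowest of the 10. The likeness rests on 1 ratio per gene, from a pair of libraries.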

How the data were processed

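Per the labels, mRNA was taken from total RNA with Dynabeads and made into Illumina libraries, and the submitters' processing notes name Novoalign and mm9. The deposited values were counts of reads per aligned line, without normalization by the authors. That the count stands for identical reads was inferred from the values, and several lines can share a position. Reads with an aligned block on the union of a gene's exons (GENCODE vM1, mm9) were summed, on both strands because under 90% lay on the strand of the gene. RPKM used the library total. Ratios carry exact conditional intervals, levels exact Poisson intervals (95%, scipy 1.17.1). PCR copies are not independent molecules. A fold of 1.5 and a minimum of 100 reads per library described all genes. With 1 library per cross no test was run. The ratio code was tested on simulated counts. Intron reads lie wholly within an intron, and a read across exons counts for each.

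The text names all 8 genes, genes overlapping their exons, and per list the 3 highest by mean RPKM, the highest and lowest ratio and up to 5 genes past the fold. Slc46a1, Folr2, Rbp4, Kcnq1, Kcne1, Fgf23 and cilia and tissue markers with few reads were named after their values were seen. Members and lists were chosen with earlier results of these data known. The authors' allelic tables were not used here. Sequences come from the mm9 genome. None is printed for Ttr. Some genes that this rule would name are not reported here.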

Additional observations from a re-analysis of the deposited data

How the results depend on the processing

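No paired analysis was possible because each cross has 1 library. The number of the 8 genes past 1.5-fold stayed 0 under each alternative scaling, count and strand choice, and was 1 (Clic6) at 5/4-fold and 0 at 2-fold. Over the coding part only 7 of the 8 had 100 reads in each library, on either strand alone 6, and over annotated junctions 2. The median log2 ratio of all 8, 0.084, was 0.031 over the coding part, 0.079 without chromosomes X and M and 0.085 with median-ratio scaling. It was 0.11 with each line counted once, 0.15 over junctions and 0.16 by distinct positions. The junction median includes Kl (2 and 5 reads), Kcne2 (2 and 3) and Kcnj13 (4 and 3). Ttr and Foxj1, the 2 with 100 junction reads, had 0.020 and 0.076. The median was -0.049 on the gene's strand and 0.19 on the opposite strand, and from 0.039 to 0.13 when any 1 gene was left out. The strand and position counts were added after the data were seen. The planned choice of both strands became the main count.

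The shares of all genes past the fold, 0.473% higher and 0.622% lower in CxB, were 0.0356% and 0.150% with each line counted once, 0.0287% and 0.136% by distinct positions, 3.64% and 4.04% at 5/4-fold, and 0.0713% and 0.0648% at 2-fold. With at least 20 reads they were 2.56% and 2.50%, and with at least 1 read 9.48% and 9.61%. The higher share was 0.247% on the gene's strand, and the lower share 0.331% on the opposite strand. The summed log2 ratio of other choroid plexus genes, -0.14, was -0.030 with each line counted once, 0.013 by positions and -0.016 without Igf2, and that of motile cilia genes, -0.057, was -0.027 with each line counted once. Ttr, at 253 (BxC) and 281 (CxB) RPKM, was at 617 and 672 over the coding part and 136 and 141 with each line counted once, and Kl, at 0.314 and 0.294, was at 0.354 and 0.348 and at 0.722 and 0.716. Why the values moved was not tested. Depth limits Kl, Kcnj13, Folr1 and Kcne2 most, with 165 to 418 reads in a library.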
